A study of Mus musculus with 4 samples.

Results

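Pitx1, Isl1, Tbx2, Tbx3, Tbx4, Tbx5, Tbx15 and Tbx18 are 8 transcription factor genes of limb identity and of the T-box family, chosen by name from the 33456 gene entries of the count tables. All 8 had unique molecular identifiers (UMIs, each standing for 1 captured RNA molecule) in all 4 libraries. The libraries are single-cell RNA-seq of dissociated hindlimbs from C57BL/6 mouse embryos at E11.5, when the bud has formed, E13.5, when cartilage condenses, E15.5, when joint cavities open, and E18.5, when joints take shape (E, embryonic day), with no mutant, treatment or forelimb sample among them. Each stage is 1 library, made from litter-mates of 1 dam whose cells were pooled, frozen and later captured in droplets after dead cells had been removed. There is therefore no replicate at any stage, no p-value is given, and every interval covers counting error only.

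Pitx1 is a paired-type homeobox factor transcribed in the hindlimb field and not in the forelimb field, where it acts upstream of Tbx4 and is needed for hindlimb shape. Isl1, a LIM homeobox factor, acts early in the hindlimb field, in part through Hand2 and Shh at the posterior margin. T-box factors bind DNA through a shared domain and fall into close pairs: Tbx4 and Tbx5 drive the outgrowth of hindlimb and forelimb buds, Tbx2 and Tbx3 are mainly repressors with roles in digit identity, and Tbx15 and Tbx18 act in the skeleton, the dermis and, for Tbx18, the cells that wrap vessels.

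On GRCm38, Pitx1 lies at chr13:55825051-55836192 and Isl1 at chr13:116298281-116309689, both on the minus strand. On the plus strand lie Tbx2 at chr11:85832551-85841948, Tbx4 at chr11:85886422-85916097, Tbx3 at chr5:119670669-119684724, Tbx5 at chr5:119832668-119885219 and Tbx15 at chr3:99240381-99354259, and on the minus strand Tbx18 at chr9:87702800-87731260. Tbx2 and Tbx4, of different close pairs, lie 44.5 kb apart on chromosome 11 with 1 coding gene between them, and Tbx3 and Tbx5 lie 148 kb apart on chromosome 5 with 3 genes and 0 coding genes between them (GENCODE vM21). The 90-base stretch of the T-box coding sequence that is most alike in all 6 genes is shown for 5 of them because it carries the family resemblance, and capitals mark the 50 bases that all 6 share.
Tbx2, coding bases 763 to 852: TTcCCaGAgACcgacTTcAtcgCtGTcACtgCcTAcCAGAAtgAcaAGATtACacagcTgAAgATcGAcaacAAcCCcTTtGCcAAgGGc
Tbx3, coding bases 817 to 906: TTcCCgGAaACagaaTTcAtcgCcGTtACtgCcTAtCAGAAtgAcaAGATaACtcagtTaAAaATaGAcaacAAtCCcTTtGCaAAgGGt
Tbx5, coding bases 616 to 705: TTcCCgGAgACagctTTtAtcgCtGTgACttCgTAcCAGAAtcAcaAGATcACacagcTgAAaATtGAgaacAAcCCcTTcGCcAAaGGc
Tbx15, coding bases 814 to 903: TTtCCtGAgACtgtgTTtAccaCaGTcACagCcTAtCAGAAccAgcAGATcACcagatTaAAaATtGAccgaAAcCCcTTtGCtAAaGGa
Tbx18, coding bases 910 to 999: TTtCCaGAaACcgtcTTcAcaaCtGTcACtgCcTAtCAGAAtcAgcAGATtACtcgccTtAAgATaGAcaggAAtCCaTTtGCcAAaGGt
Over the whole aligned coding sequence Tbx4 and Tbx5 were identical at 63.9% of bases, Tbx2 and Tbx3 at 63.0% and Tbx15 and Tbx18 at 62.1%, while the other 12 pairs lay between 45.2% and 51.6%. No pair was near-identical over its coding sequence.

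RefSeq's table of promoters (250 bases before to 50 after a start, GRCm38.p6) held 3 of the 8 genes. The promoters of Tbx4 and Isl1, the early hindlimb pair, are printed with motif matches in capitals. The motifs searched on both strands were GGTGTGA (a T-box half-site), TAATCC (a site of PITX and other bicoid-type factors), TAATTA (a homeobox palindrome) and TATAAA (the TATA box).
Tbx4 promoter, chr11:85896515-85896814, plus strand: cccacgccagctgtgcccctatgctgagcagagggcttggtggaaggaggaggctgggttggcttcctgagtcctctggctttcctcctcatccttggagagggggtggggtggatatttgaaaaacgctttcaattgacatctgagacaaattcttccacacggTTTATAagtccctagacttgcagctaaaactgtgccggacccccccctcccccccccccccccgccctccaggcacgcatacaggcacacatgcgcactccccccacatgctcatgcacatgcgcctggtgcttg
Isl1 promoter, chr13:116309639-116309938, minus strand: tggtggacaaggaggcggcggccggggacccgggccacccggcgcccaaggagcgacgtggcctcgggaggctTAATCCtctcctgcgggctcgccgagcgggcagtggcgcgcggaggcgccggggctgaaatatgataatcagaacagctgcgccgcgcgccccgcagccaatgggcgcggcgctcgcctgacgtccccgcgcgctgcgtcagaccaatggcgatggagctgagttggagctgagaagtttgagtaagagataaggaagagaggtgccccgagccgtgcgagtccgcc
The Tbx4 window holds 1 match, to TATAAA on the reverse strand (read here as TTTATA), and the Isl1 window holds 1 match, to TAATCC. Among all 32851 promoters of the table, 13.6% hold TATAAA, 7.06% hold TAATCC, 5.29% hold TAATTA and 3.98% hold GGTGTGA. The Tbx18 window on chromosome 9 held none of the 4 motifs. The Tbx4 window lies inside the longer gene annotated by GENCODE, which starts upstream of it.

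After filtering, 9916 of 10272 cell barcodes were kept, with a median of 6940 to 10265 UMIs per cell and 14650216 UMIs in all at E18.5 against 26555174 to 35086578 at the earlier stages. Cells were clustered without the 8 genes and the clusters were joined into compartments by marker genes. The mesenchyme (cartilage, joint, connective tissue and limb bud cells) held 1803, 2334, 2045 and 616 cells from E11.5 to E18.5, or 68.9%, 83.0%, 79.0% and 32.5%. Mural cells, which wrap vessels, numbered 0, 3, 14 and 339, and muscle cells 7, 70, 134 and 426. The epithelium (Epcam in 88.1% of its cells), endothelium (Cdh5 in 96.8%), immune cells (Tyrobp in 89.2%, Ptprc in 63.4%) and mural cells (Rgs5 in 98%) showed their defining markers. The mesenchyme was less sharply marked, with Col1a2 in 74.5% of its cells against 38.3% of other cells. Prrx1 was in 41.3% against 12.7% and Twist1 in 34.5% against 6.35%. Of muscle cells 48.2% held Myod1, 46.8% Myog and 25.4% Pax7, against 0.701%, 3.45% and 0.108% of other cells. Barcode sequences shared between libraries numbered 69 over the 6 pairs of libraries. Levels are given as CPM, the gene's summed UMIs scaled to a total of 1000000 UMIs, and in such sums fewer cells with a gene and less RNA per cell cannot be told apart.

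Pitx1, the hindlimb-specific homeobox gene, was detected at every stage, and its level in whole libraries was lower at each later one. From E11.5 to E18.5 it had 6741, 2960, 2000 and 260 UMIs, which is 254, 84.4, 67.6 and 17.7 CPM. The mesenchyme held 99.2%, 98%, 97.2% and 94.6% of these UMIs. Within the mesenchyme the levels were 391 CPM (95% Poisson interval 381 to 400), 101 (97.4 to 105), 86.4 (82.6 to 90.4) and 56.0 (49.2 to 63.4), and no interval overlapped its neighbour. At E11.5, 86.7% of mesenchyme cells held a Pitx1 UMI, against 7.02% of the immune cells, which should lack it (median depth 8509 and 18699 UMIs). After thinning each cell to 3000 UMIs the shares were 62.6% of mesenchyme cells and 1.75% of immune cells. The most Pitx1 UMIs in any 1 cell was 41. GENCODE places a same-strand RNA gene, Gm28760, over 736 bases of Pitx1, and it had 48, 5, 1 and 0 UMIs.

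Tbx4, the hindlimb outgrowth gene, had 242, 87, 84 and 17 UMIs, or 9.11, 2.48, 2.84 and 1.16 CPM. Its mesenchymal level was 13.8 CPM (12.1 to 15.7) at E11.5, then 2.96 (2.36 to 3.66), 3.74 (2.98 to 4.63) and 3.41 (1.91 to 5.63), so only E11.5 stood apart from the rest. The epithelium had 0 Tbx4 UMIs at all 4 stages, which at E11.5 allows a level of up to 0.823 CPM. Tbx5, the forelimb gene that checks the identity of the limb, had 13, 20, 18 and 12 UMIs, or 0.490, 0.570, 0.608 and 0.819 CPM, with overlapping intervals throughout.

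The share of Tbx5 among the UMIs of Tbx4 and Tbx5 together was 5.10% (95% Clopper-Pearson interval 2.74 to 8.56), 18.7% (11.8 to 27.4), 17.6% (10.8 to 26.4) and 41.4% (23.5 to 61.1) from the first stage to the last. In the mesenchyme the share was 42.3% at E18.5 (23.4 to 63.1), against 17.6% at E15.5, with Tbx4 at 3.41 against 3.74 CPM and Tbx5 at 2.5 against 0.801 CPM. At E11.5 the 13 cells with a Tbx5 UMI all held Pitx1 as well, and 5 of them held Tbx4. Of the E11.5 mesenchyme cells without Tbx5, 86.6% held Pitx1. Pitx1 was held by 10 of 16 Tbx5 cells at E13.5 and 12 of 18 at E15.5, against 58.9% and 50.9% without Tbx5. At E18.5 none of the 11 cells with Tbx5 held Pitx1. In the mesenchyme this was 0 of 10 cells (0 to 30.8%), against 26.2% of cells without Tbx5 (22.8 to 29.9), with overlapping intervals. Of the 11 cells, 7 lay in the fibroblast-like cluster led by Egfl6, which was low in Pitx1 at that stage. All Tbx5 UMIs lay in mesenchyme cells except 1 in a mural cell at E18.5.

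**Figure D1:**
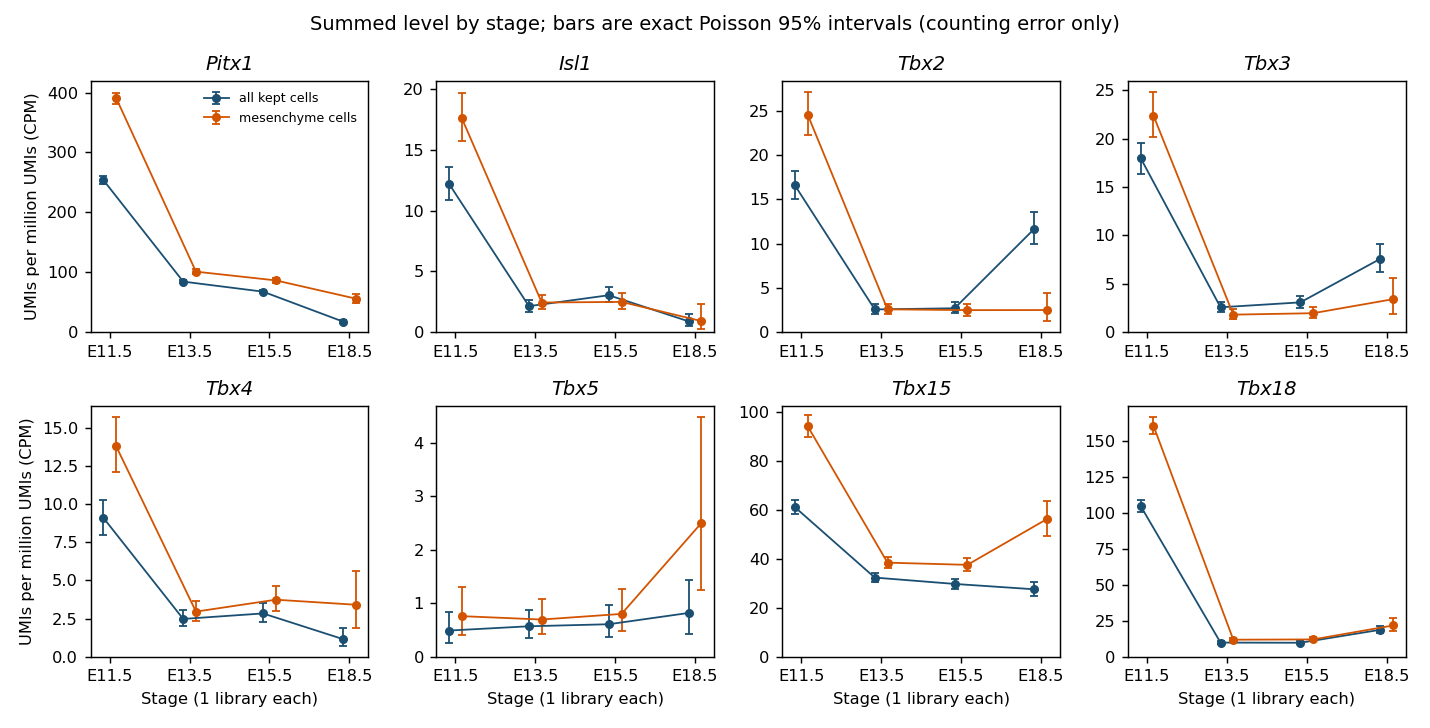
Level of each gene in CPM (vertical axis, starting at 0) at the 4 stages, in all kept cells (blue) and in mesenchyme cells only (orange), with exact Poisson 95% intervals. In the mesenchyme every gene but Tbx5 is highest at E11.5, while in all cells Tbx2, Tbx3 and Tbx18 are higher at E18.5 than at E15.5.

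Isl1 had 324, 75, 90 and 13 UMIs from E11.5 to E18.5, or 12.2, 2.14, 3.04 and 0.887 CPM. Its mesenchymal level was 17.6 CPM (15.7 to 19.7) at E11.5 and between 0.910 and 2.49 CPM afterwards. Tbx2 had 440, 90, 80 and 171 UMIs and Tbx3 had 477, 90, 91 and 111. In the mesenchyme both repressors were high at E11.5 only, with 24.6 CPM for Tbx2 and 22.4 for Tbx3, against 2.49 to 2.58 and 1.81 to 3.41 CPM at the later stages. Whole libraries nevertheless held more of both at E18.5 than at E15.5, with 11.7 against 2.70 CPM for Tbx2 and 7.58 against 3.08 CPM for Tbx3.

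Tbx18 had 2778, 347, 289 and 275 UMIs, or 105, 9.89, 9.77 and 18.8 CPM. Tbx15, its closest relative, had 1626, 1137, 881 and 404 UMIs, or 61.2, 32.4, 29.8 and 27.6 CPM. The mesenchymal level of Tbx18 was 161 CPM (155 to 167), 11.9 (10.6 to 13.2), 12.1 (10.7 to 13.6) and 21.8 (17.7 to 26.7). That of Tbx15 was 94.3 CPM (89.7 to 99.0), 38.5 (36.2 to 40.8), 37.6 (35.1 to 40.2) and 56.4 (49.6 to 63.9). Both were highest at E11.5 and both were higher at E18.5 than at E15.5 in the mesenchyme, but the drop after E11.5 was far steeper for Tbx18. In the clusters named connective tissue fibroblast, Tbx18 had 41.2 CPM (32.9 to 51.1) at E18.5 against 76.6 (61.9 to 93.8) at E15.5. Tbx15 had 74.2 against 36.7 CPM there. In those named chondrocyte, Tbx18 had 4.51 against 4.19 CPM, with overlapping intervals. The fibroblast-like cluster led by Egfl6 had 199 of 616 mesenchyme cells at E18.5 against 150 of 2045 at E15.5. Its part in the mesenchymal rise of Tbx18 was not tested.

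To set these changes against the rest of the genome, each gene's CPM ratio between neighbouring stages was divided by that of the median gene, and a gene was called where this ratio was at least 2 in either direction, its interval lay on 1 side of 1 and the pair held at least 20 UMIs. The median gene itself stood at -0.55, -0.03 and -0.14 on the log2 scale in the 3 pairs, later over earlier, in whole libraries, and at -0.53, -0.02 and -0.11 in the mesenchyme. At E13.5 against E11.5, 0 of the 8 genes were called higher, beside 19.5% of all genes tested, and 6 were called lower, beside 9.55%. The 6 were Tbx18 (7.24-fold lower, 6.48 to 8.12), Tbx3 (4.80-fold), Tbx2 (4.42-fold), Isl1 (3.91-fold), Tbx4 (2.52-fold) and Pitx1 (2.06-fold, 1.97 to 2.15). The median of the 8 log2 ratios was -1.65, where the median gene is 0 by construction. Tbx15 was 1.29-fold lower (1.20 to 1.40) and Tbx5 had a ratio of 1.70 (0.805 to 3.72), and neither was called. Pitx1 lay close to the threshold: with counts capped at 5 UMIs per cell its ratio was 0.611 and it was not called.

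Within the mesenchyme the same 6 genes were called lower at E13.5 than at E11.5, beside 11.1% of all genes, and 0 higher, beside 21.3%. The sizes were larger there, 9.37-fold for Tbx18, 8.56-fold for Tbx3, 6.61-fold for Tbx2, 5-fold for Isl1, 3.22-fold for Tbx4 and 2.67-fold for Pitx1. The mesenchyme clusters of E11.5 hold no cells of the later stages, so this comparison is between different clusters. At E15.5 against E13.5, where the same clusters are filled at both stages, 0 of the 8 genes were called in either direction, in whole libraries (4.12% of genes higher, 0.898% lower) or in the mesenchyme (2.77% higher, 0.847% lower).

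At E18.5 against E15.5 whole libraries and mesenchyme gave different calls. In whole libraries Tbx2 (ratio 4.77, 3.64 to 6.30), Tbx3 (2.72, 2.05 to 3.63) and Tbx18 (2.12, 1.79 to 2.51) were called higher, beside 13.7% of all genes, and Pitx1 (3.45-fold lower), Isl1 (3.10-fold lower) and Tbx4 (2.21-fold lower) were called lower, beside 6.34%. In the mesenchyme 0 were called lower, beside 3.35% of genes, and Pitx1 was 1.43-fold lower (1.25 to 1.64) and Tbx4 1.01-fold lower (0.582 to 1.89). The mesenchyme made up 30% of all UMIs at E18.5 against 76.0% at E15.5. Only Tbx5 was called higher in the mesenchyme, beside 8.88% of genes, with a ratio of 3.37 (1.44 to 7.54) that rests on 11 and 18 UMIs. Tbx18 had a ratio of 1.95 there (1.53 to 2.48), which was above 2 under a stricter cell filter (2.02) and with counts capped at 5 per cell (2.12).

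At E18.5 most of the Tbx2, Tbx3 and Tbx18 UMIs lay in mural cells. At E18.5 the 339 mural cells held 152 of 171 Tbx2 UMIs (88.9%), 62 of 111 Tbx3 UMIs (55.9%), 170 of 275 Tbx18 UMIs (61.8%) and 119 of 404 Tbx15 UMIs (29.5%). Their level in mural cells was 54.6 CPM for Tbx2 (46.3 to 64.0), 22.3 for Tbx3 (17.1 to 28.5), 61.1 for Tbx18 (52.2 to 71.0) and 42.7 for Tbx15 (35.4 to 51.2). The mesenchyme of the same library had 2.5 CPM of Tbx2, 3.41 of Tbx3, 21.8 of Tbx18 and 56.4 of Tbx15, so that 3 of these genes were higher in mural cells and Tbx15 was not. With mural cells left out of all libraries, a setting chosen after seeing the data, 0 of the 8 genes were called higher at E18.5, and the ratios were 0.809 for Tbx2, 1.51 for Tbx3 and 1.05 for Tbx18. The share of all genes called was not computed in this setting, so the count of 0 has no background beside it.

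Mural cells carried Tbx2, Tbx15 and Tbx18 before E18.5 too. The 14 mural cells of E15.5 held 15 of the 80 Tbx2 UMIs of that library (18.8%), at 94.3 CPM (52.8 to 155), and 13 Tbx18 UMIs at 81.7 CPM (43.5 to 139.7). They held 10 Tbx15 UMIs and 1 Tbx3 UMI. The intervals of Tbx2, Tbx15 and Tbx18 overlapped those of the E18.5 mural cells, as did that of Tbx3 (6.28 CPM, 0.159 to 35), from its 1 UMI. Mural cells numbered 339 at E18.5 against 14 at E15.5, muscle cells 426 against 134, and the part of these numbers in the whole-library ratios cannot be told apart from a change of level with 1 library per stage. The hindlimb pair was nearly absent from E18.5 mural cells, with 9 Pitx1 UMIs (3.23 CPM) and 1 Tbx4 UMI. The mural label rests on Rgs5 in 98.5%, Notch3 in 82.6%, Abcc9 in 73.2% and Kcnj8 in 68.4% of these cells, against 10.7%, 4.87%, 2.44% and 2.76% of E18.5 mesenchyme cells. Of the other listed markers checked, Acta2 was in 79.9% against 20.9% and Pdgfrb in 72.9% against 11.2%. Cspg4 separated the 2 groups least, at 46.3% against 33.8%. Prrx1, a mesenchyme factor of the limb, was also found in 68.1% of the mural cells, and Pdgfra, a fibroblast receptor, in 1.47%.

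**Figure D2:**
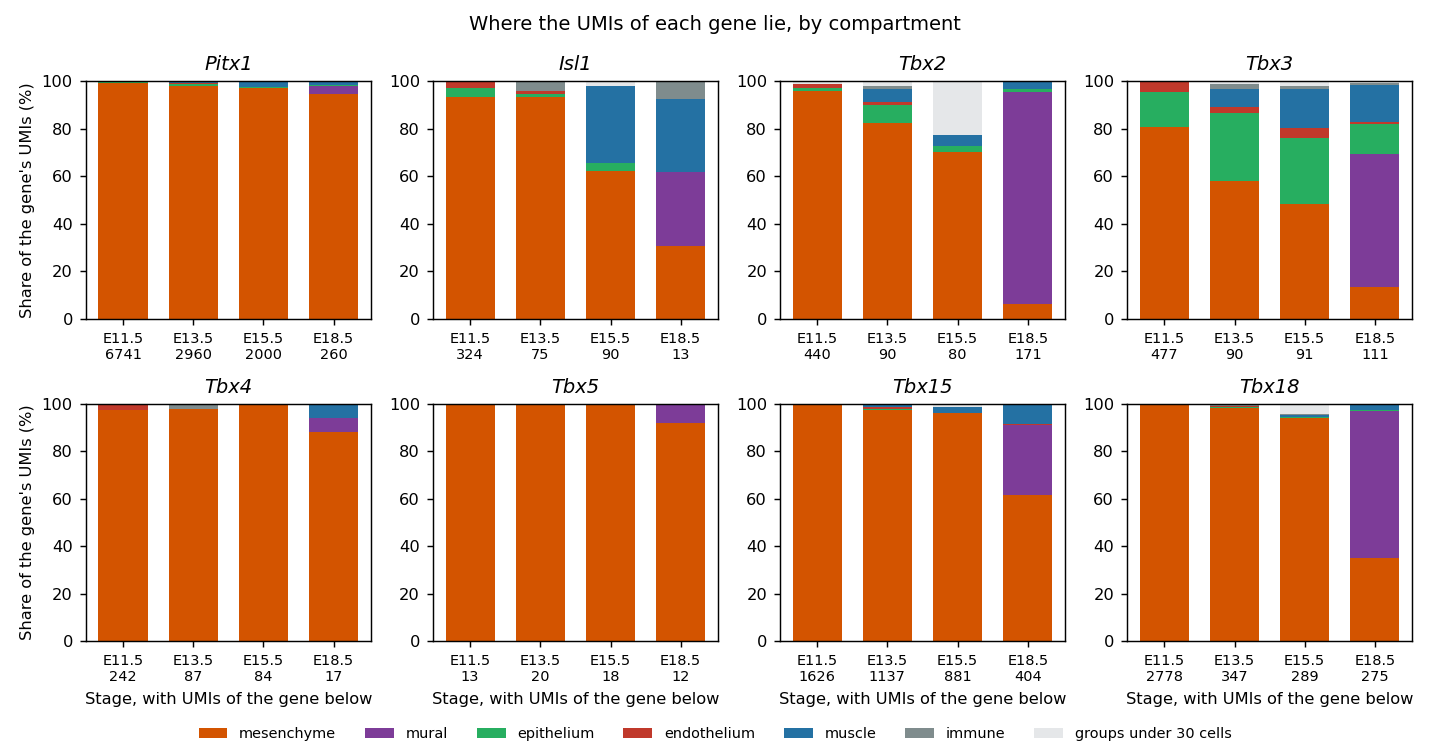
Share of each gene's UMIs that lay in each compartment (vertical axis, percent), by stage, with the gene's UMI total under each bar and pale grey for groups under 30 cells. Pitx1, Tbx4 and Tbx5 stay orange (mesenchyme) at all stages, Tbx2 turns purple (mural, 88.9%) at E18.5, and Tbx3 keeps a green (epithelial) part throughout.

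Tbx3 had the largest epithelial share of the 8 genes at every stage. Epithelial cells held 70, 26, 25 and 14 of its UMIs from E11.5 to E18.5, which is 14.7%, 28.9%, 27.5% and 12.6% of each library's Tbx3. The epithelial level was 19.2 CPM (15.0 to 24.3), 8.87 (5.8 to 13), 13.4 (8.64 to 19.7) and 8.14 (4.45 to 13.7), and from E13.5 to E15.5 it lay above the mesenchymal 1.81 to 1.96 CPM. At E11.5, 15.9% of epithelial cells held a Tbx3 UMI and 0 of 57 immune cells did, which allows up to 5.26% of them, at median depths of 8910 and 18699 UMIs. Its relative Tbx2 had 6, 7, 2 and 2 epithelial UMIs. Tbx3 was also read in muscle cells, which held 7.78%, 16.5% and 15.3% of its UMIs from E13.5 to E18.5. The muscle levels were 5.99 CPM (2.41 to 12.3), 6.51 (3.64 to 10.7) and 5.01 (2.92 to 8.03). Each interval overlapped the epithelial one of its stage. The muscle interval also overlapped that of immune cells at E13.5 (0.234 to 6.98) and E15.5 (0.0189 to 4.16). At E18.5 it lay just above the immune one (0.0131 to 2.89). The E11.5 endothelium had 5.08 CPM of Tbx3, from 23 UMIs. Tbx3 lies on chromosome 5 and overlaps its antisense gene Tbx3os1 by 697 bases, and strand use in counting was not given in those sources that were used, so that reads from the overlap cannot be told apart. Tbx3os1 itself had 20, 8, 10 and 7 UMIs. The same limit holds for Pitx1, Tbx15 and Tbx18, which GENCODE overlaps with Gm47071, Gm43120 and D030062O11Rik on the opposite strand.

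Within the E11.5 limb bud the genes divided the mesenchyme among its 3 clusters. Cluster 0, led by Pmaip1 and Lhx2, had 28.8 CPM of Tbx18 (24.9 to 33.1), cluster 1, led by Mab21l2 and Shox2, had 215 (204 to 226), and cluster 2, led by Hsd11b2 and Osr2, had 320.5 (302 to 340.3). Tbx15 followed the same order, with 53.7, 90.8 and 185 CPM. Tbx2 was low in cluster 2 only, with 29.5, 29.5 and 4.49 CPM. Tbx4 varied least, with 11.1, 16.2 and 14.4 CPM, and the 3 intervals overlapped. Pitx1 had 246, 507 and 447 CPM. None of the 8 genes was used to make the clusters.

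To place the genes along the axes of the bud, E11.5 mesenchyme cells were split by whether they held a UMI of a marker gene, and the CPM in marker-positive cells was divided by that in marker-negative cells. Cells with a marker were often deeper, so CPM and not the share of cells is compared. Along the proximal to distal axis Tbx18 spanned a wide range of ratios. It had 242 CPM in cells with Shox2, a gene of the upper limb segment, against 60.4 CPM without (ratio 4.02, 3.63 to 4.45). In cells with Hoxd13, a gene of the future foot, it had 31.7 CPM against 233 CPM without (ratio 0.136, 0.117 to 0.158). Pitx1 ran the same way but less far, with 495 CPM against 262 CPM for Shox2 (ratio 1.89) and 224 CPM against 483 CPM for Hoxd13 (ratio 0.464). Tbx15 had a Hoxd13 ratio of 0.550 (0.489 to 0.618). Tbx2 was higher in cells with distal markers, with a ratio of 2.28 (1.83 to 2.85) for Lhx2 and 1.62 (1.33 to 1.97) for Hoxd13, and also in cells with the proximal markers Meis2 (1.84, 1.5 to 2.25) and Irx3 (1.60, 1.22 to 2.08).

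Along the anterior to posterior axis Tbx2 stood out. In the 34 cells with Shh, the signal of the posterior margin, it had 127 CPM against 21.8 CPM in the other cells (ratio 5.81, 4.33 to 7.68). Tbx15 had 6.57 CPM in those cells, from 3 UMIs, against 96.7 CPM in the others (ratio 0.0679, 0.0140 to 0.199). Tbx3 had 50.3 against 21.7 CPM (ratio 2.32), Isl1 35.0 against 17.2 CPM (2.04) and Pitx1 258 against 394 CPM (0.655). In cells with Hand2, the posterior factor upstream of Shh, the ratios were 2.68 for Tbx2, 2.31 for Tbx3 and 1.71 for Isl1. In cells with Pax9, an anterior marker, they were 0.215 for Tbx2, 0.280 for Isl1 and 0.431 for Tbx3. The anterior markers Irx5 and Alx4 gave other ratios. Irx5 gave 1.71 (1.28 to 2.25) for Tbx2, 1.88 (1.40 to 2.47) for Tbx3 and 2.62 (1.95 to 3.47) for Isl1, and Alx4 gave 1.84 for both Tbx2 and Tbx3 and 0.336 (0.0689 to 0.992) for Isl1. For Ptch1, a target of Shh signalling, all 3 intervals held 1, with 0.668 for Tbx2, 1.40 for Tbx3 and 1.43 for Isl1.

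Of these 3 genes, Isl1 had the highest ratios for the proximal markers Meis1, Meis2 and Irx3. Cells with Meis2, a proximal factor, had 40.2 CPM of Isl1 against 10.0 CPM in cells without it (ratio 4.02, 3.18 to 5.08), and Irx3 gave a ratio of 2.52. The dorsal marker Lmx1b gave ratios of 0.358 (0.212 to 0.569) for Isl1 and 0.551 (0.380 to 0.778) for Tbx3, against 0.815 (0.604 to 1.08) for Tbx2. Splitting by Meis2 and Hand2 together, a choice made after these values were seen, Isl1 had 46.3 CPM with both markers, 35.9 with Meis2 alone, 15.9 with Hand2 alone and 3.83 with neither. Tbx2 had 62.2, 20.3, 29.4 and 10.8 CPM and Tbx3 58.8, 24.6, 24.4 and 9.25 CPM in the same 4 groups, so all 3 were highest where both markers were present and lowest where neither was. Tbx18 was highest with Meis2 alone, at 340.4 CPM. Tbx4 was nearly even over these groups, between 12 and 15.2 CPM, and the interval of its ratio held 1 for 17 of the 18 axis markers, Alx4 (2.11, 1.14 to 3.62) being the exception.

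**Figure D3:**
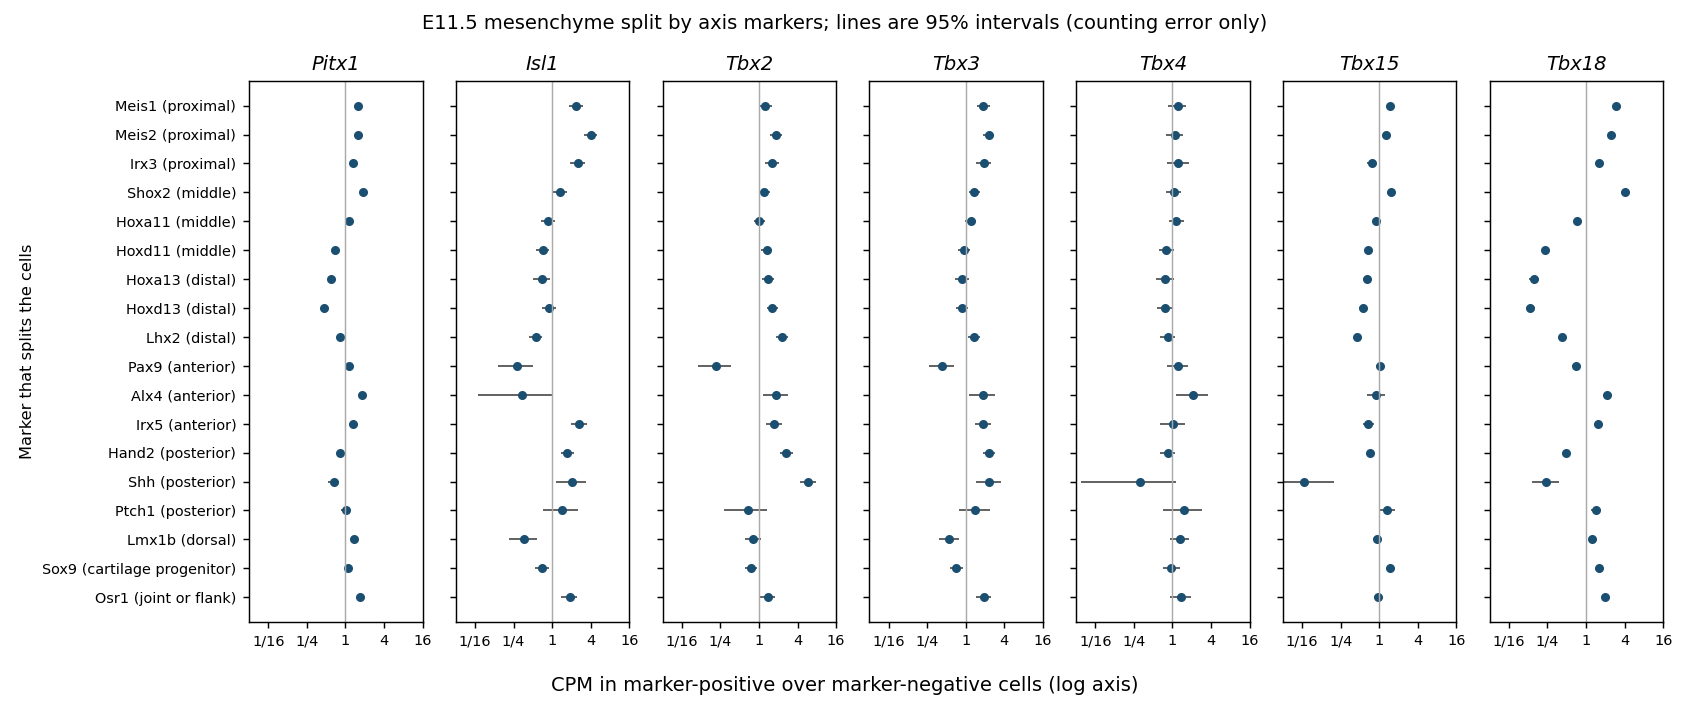
Ratio of each gene's CPM in marker-positive over marker-negative E11.5 mesenchyme cells (horizontal log axis, 1 panel per gene) for the 18 axis markers, with exact 95% intervals. Tbx18 runs from 4.02 for Shox2 to 0.136 for Hoxd13, Tbx2 peaks at 5.81 for Shh, and Tbx4 lies around 1.

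The same cells tended to hold Isl1, Tbx2 and Tbx3, and Tbx15 was less frequent in these cells than in cells without them. After thinning each E11.5 mesenchyme cell to 3000 UMIs, 26.0% of Isl1-positive cells (16.6 to 37.2) also held Tbx3, against 5.55% of Isl1-negative cells (4.51 to 6.74). Unthinned, the shares were 43.6% and 10.3%, at median depths of 9803 and 8382 UMIs. Tbx3 was found in 17.7% of Tbx2-positive cells (10.7 to 26.8), against 5.79% of Tbx2-negative cells. Tbx15 was found in 7.29% of Tbx2-positive cells (2.98 to 14.4), against 26.2% of Tbx2-negative cells, and in 10.4% of Tbx3-positive cells (5.51 to 17.5), against 26.1% of Tbx3-negative cells. Unthinned, Tbx15 was in 23.7% of Tbx2-positive and 53.9% of Tbx2-negative cells, and in 26.8% of Tbx3-positive and 53.3% of Tbx3-negative cells. Tbx15 and Tbx18 overlapped: 46.2% of Tbx15-positive cells (41.5 to 51.0) held Tbx18, against 25.7% of Tbx15-negative cells (23.4 to 28.1). Unthinned, these were 55.6% and 39.5%. Tbx4-positive cells held Pitx1 in 60.9% of cases (48.4 to 72.4), against 62.7% of Tbx4-negative cells (60.4 to 65.0). The immune cells, at a median of 18699 UMIs, held a Tbx3 UMI in 0 of 57 cells and a Tbx15 or Tbx18 UMI in 1.75% each.

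**Figure D4:**
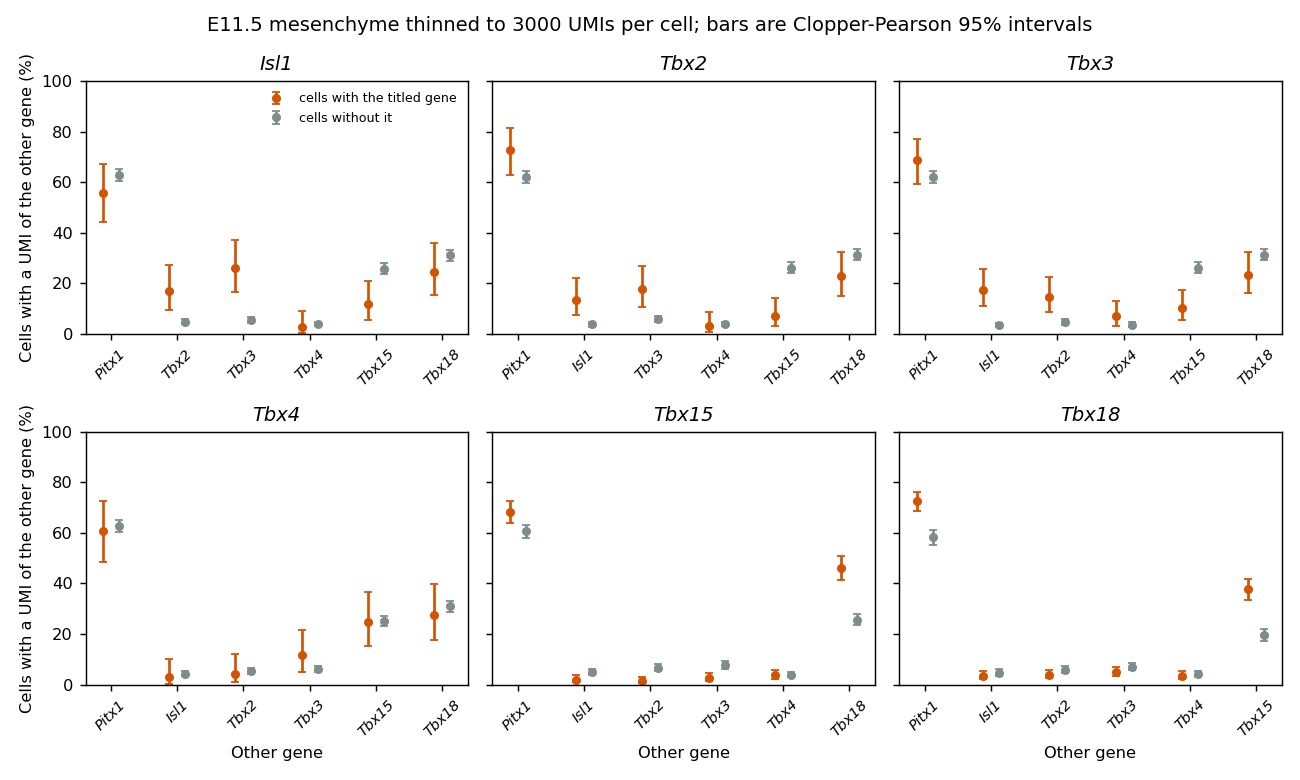
Share of thinned E11.5 mesenchyme cells with a UMI of each other gene (vertical axis, percent), among cells with (orange) and without (grey) the gene named over the panel, with Clopper-Pearson 95% intervals. Orange lies above grey for the pairs among Isl1, Tbx2 and Tbx3 and for Tbx15 with Tbx18, and below grey for Tbx15 in cells with Isl1, Tbx2 or Tbx3.

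Fewer cells held several of the 8 genes after E11.5. In thinned mesenchyme cells, 42.7% held a UMI of at least 2 of the genes at E11.5, then 6.77%, 5.28% and 6.74%, and 19.5% held none at E11.5, then 59.5%, 64.3% and 64.0%.

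In the differentiating limb Pitx1 was found in joint-like and cartilage-like clusters and was lower in hypertrophic-like clusters and in one of the fibroblast-like clusters. At E13.5 its level was 206 CPM in a dividing joint-like cluster (cluster 14, led by histone genes), 155 in the joint-like cluster led by Gdf5, 108 in the chondrocyte-like cluster led by Cytl1, 67.2 in the one led by Epyc and 36.2 (29.5 to 44.0) in the hypertrophic-like cluster led by Ihh. At E15.5 it was 153 CPM in the dividing joint-like cluster, 74.5 in the Gdf5 cluster, 89.9 in the Cytl1 cluster, 48.2 in the Ihh cluster, 33.3 in the hypertrophic-like cluster led by Spp1 and 28.1 (19.4 to 39.2) in the fibroblast-like cluster led by Egfl6. At E18.5 the chondrocyte-like cluster led by Ucma had 102 CPM (85.3 to 119.9) and the Egfl6 cluster 8.38 (4.02 to 15.4), while the other fibroblast-like cluster, led by Mfap5, had 53.4 (38.9 to 71.4).

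Between the Ucma and Egfl6 clusters Tbx18 had the opposite order at E18.5. It had 5.84 CPM (2.52 to 11.5) in the Ucma cluster, 42.7 CPM (31.8 to 56.2) in the Egfl6 cluster and 39.2 CPM (27 to 55) in the Mfap5 cluster. At E15.5 the Egfl6 cluster held 93 of 289 Tbx18 UMIs, at 76.7 CPM (61.9 to 94.0), and 1 mesenchyme cell of that library held 19 Tbx18 UMIs. Tbx15 was found both in cartilage and in connective tissue at E18.5, with 51.1 CPM in the Ucma cluster and 88.0 CPM (71.9 to 106) in the Egfl6 cluster. It was low in hypertrophic-like cells, at 9.32 CPM (6.09 to 13.7) at E13.5 and 13.8 CPM (9.14 to 19.9) at E15.5.

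A cluster led by Dkk2, Chodl and Ogn, which the markers did not name, held a large share of the Tbx18, Tbx2 and Tbx4 UMIs of E13.5. Its 469 cells had 178 of 347 Tbx18 UMIs (51.3%), 49 of 90 Tbx2 UMIs (54.4%), 33 of 87 Tbx4 UMIs (37.9%) and 19 of 90 Tbx3 UMIs (21.1%), but 143 of 1137 Tbx15 UMIs (12.6%). The levels were 54.4 CPM for Tbx18 (46.7 to 63.0), 15.0 for Tbx2 (11.1 to 19.8) and 10.1 for Tbx4 (6.95 to 14.2). At E15.5 the same cluster had 54.0 CPM of Tbx18 (42.6 to 67.5), 9.12 of Tbx2 (4.86 to 15.6) and 8.42 of Tbx4 (4.35 to 14.7), and each interval overlapped that of E13.5. Isl1 was not enriched there, with 4 UMIs at E13.5 and 0 at E15.5.

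Tbx5 UMIs were spread over several mesenchyme clusters. The fibroblast-like Egfl6 cluster held 8 of the 12 Tbx5 UMIs of E18.5, at 6.70 CPM (2.89 to 13.2), and 6 of the 18 of E15.5, at 4.95 CPM (1.82 to 10.8). The intervals overlapped, and the cluster itself had 199 of 616 mesenchyme cells at E18.5 against 150 of 2045 at E15.5. The chondrocyte-like clusters led by Hist1h2ap, Cytl1 and Epyc held 4, 3 and 1 of the Tbx5 UMIs of E15.5, and the Dkk2 cluster 3. At E13.5 the Cytl1 cluster held 11 of the 20 Tbx5 UMIs, from 7 cells.

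**Figure D5:**
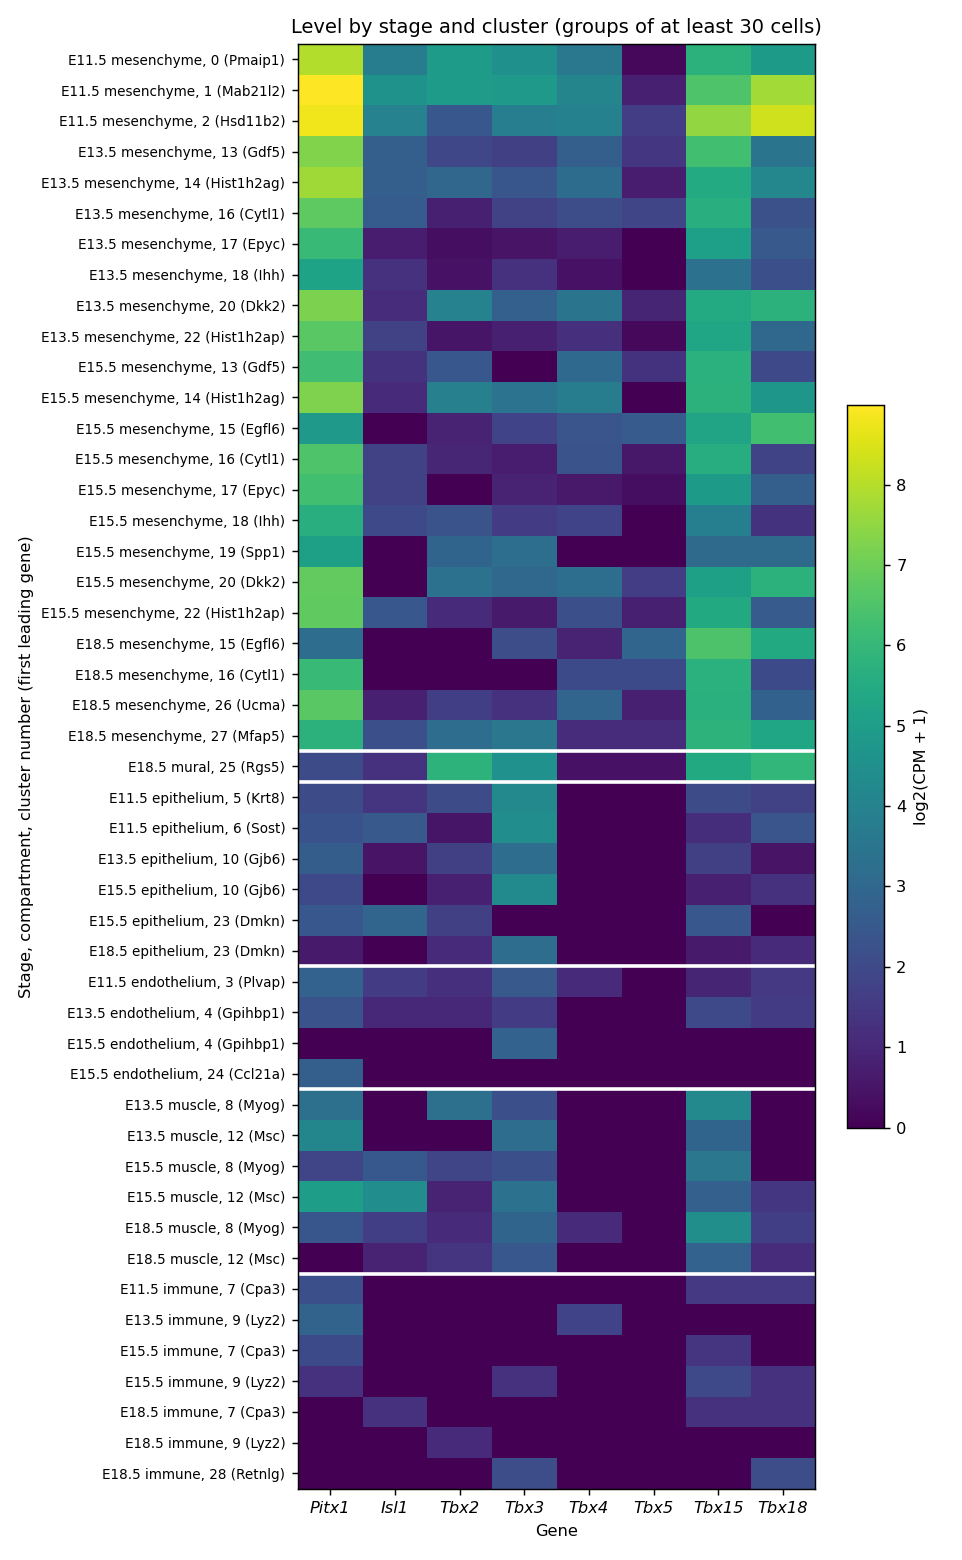
Level of each gene (columns, colour as log2 of CPM plus 1) in every group of at least 30 cells (rows, by stage, compartment and cluster with its first leading gene). In the E11.5 mesenchyme rows Pitx1 is brightest, Tbx5 is dark and Tbx2 is dim in the cluster led by Hsd11b2. The mural row of E18.5 is brightest for Tbx2, Tbx3, Tbx15 and Tbx18, and the epithelial rows show mainly Tbx3.

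Isl1 appeared in muscle cells at E15.5. The 134 muscle cells of that library held 29 of its 90 Isl1 UMIs (32.2%), at 12.6 CPM (8.43 to 18.1), with up to 9 in a single cell. The 70 muscle cells of E13.5 had 0, which allows up to 2.57 CPM, and the 426 of E18.5 had 4 UMIs, or 1.18 CPM. Of the 11 cells with Isl1 at E15.5, 8 lay in the progenitor-like cluster led by Msc and 3 in the differentiating cluster led by Myog. Splitting the E15.5 muscle cells by Isl1, a choice made after its values were seen, Pitx1 had 96.0 CPM (63.8 to 139) in cells with Isl1, where 9 of 11 held it, and 6.46 CPM (3.44 to 11.1) in cells without, where 7 of 123 did. The cells with Isl1 were deeper, with a median of 23496 UMIs against 15636, and their summed level of the 12 mesenchyme markers was higher, at 1056 CPM (941 to 1181) against 599 CPM (565 to 633) without Isl1, while E15.5 mesenchyme cells had 11205 CPM. The part of depth, mesenchymal RNA or doublets in this difference was not tested. Tbx15 was also read in muscle, at 12, 8.25 and 10.0 CPM from E13.5 to E18.5.

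The genes whose levels ran most like those of each gene were sought over 35 groups of stage and cell class, among 10226 genes with at least 500 UMIs, by Pearson's r of log2(CPM + 1). These groups share libraries and depth, so r is a description. Pitx1 ran most like Dnm1 (0.91), Hoxd11 (0.90), Wfikkn2 (0.90), Hoxa11os (0.89) and Cdh11 (0.88). Tbx4 ran most like Gm16152 (0.92), Spock3 (0.89), Lhx9 (0.89), Pax9 (0.87) and Hoxa11os (0.87), and Tbx15 like Hoxa10 (0.90), Dact3 (0.89), Runx1t1 (0.86), Osr2 (0.86) and Hoxa11 (0.86). Tbx18 ran most like Gm26523 (0.92), Prrx1 (0.88), Tmem26 (0.86), Egflam (0.85) and Prrx2 (0.85). Tbx3 ran most like Tmem132a (0.85), Nradd (0.82), Igfbp2 (0.81), Dcun1d4 (0.79) and Yap1 (0.79), Tbx2 like Prrx1 (0.76), Pcdh18 (0.75), Cxcl12 (0.75), Ebf2 (0.72) and Map1lc3a (0.71), and Isl1 like Srf (0.71), Igdcc3 (0.65), Ikzf5 (0.65) and Zik1 (0.65). Among the 8, Pitx1 had r of 0.85 with Tbx4, 0.81 with Tbx15 and 0.24 with Tbx3.

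Of the 16 genes of the outgrowth loop between mesenchyme and epithelium, 8 were called lower (beside 9.55% of all genes) and 3 higher (beside 19.5%) at E13.5 than at E11.5 in whole libraries. Fgf8, the ridge signal, was 87.1-fold lower (44.0 to 202), Sall4, a limb bud zinc finger factor, 22.8-fold lower (13.4 to 42.2), and Shh 15.1-fold lower (4.87 to 75.6, from 3 and 50 UMIs). The median log2 ratio of the list was -0.78 there and -1.70 in the mesenchyme, where that of all genes is 0. In the mesenchyme 8 of the 14 with enough UMIs were lower, beside 11.1% of all genes, and 1, the receptor Fgfr2, was higher (ratio 3.48, 3.10 to 3.93), beside 21.3%. At E15.5 against E13.5, Tcf7 was called higher (ratio 2.64) and Wnt3a lower (3.66-fold) in whole libraries, and Grem1 higher in the mesenchyme (2.05). At E18.5 against E15.5 Bmp4 was called higher in whole libraries (ratio 2.33), and Grem1 (3.96), Bmp4 (3.55) and Tcf7 (2.14) were called higher in the mesenchyme.

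Of 7 Hox genes that separate hindlimb from more anterior levels, 6 were called lower in the mesenchyme at E13.5 than at E11.5, led by the hindlimb genes Hoxc11 (4.84-fold, 3.85 to 6.13) and Hoxc10 (4.51-fold, 4.18 to 4.86) and by Hoxc8 (2.75-fold), beside 11.1% of all genes. At E18.5 against E15.5, 4 were called higher in the mesenchyme, beside 8.88% of all genes, Hoxc6 (ratio 3.75), Hoxc8 (2.5), Hoxc10 (2.27) and Hoxc9 (2.09). In whole libraries Hoxc10 (3.14-fold), Hoxc11 (2.35-fold) and Hoxc6 (2.02-fold) were lower at E13.5 and Hoxc5 was higher (ratio 2.72), beside 9.55% and 19.5% of all genes, 0 of the 7 were called at E15.5, and Hoxc6 (3.10) and Hoxc10 (2.24) were higher at E18.5, beside 13.7%. Of the 11 other T-box genes only 2 to 5 had enough UMIs to be tested in any pair, and at E13.5 against E11.5 Tbx1 was 3.38-fold lower in whole libraries and Tbx22 at least 8.14-fold lower, with 0 and 27 UMIs and a floor of 3 UMIs. Tbx1 was called higher in the mesenchyme at E15.5 than at E13.5 (ratio 4.67, from 36 and 10 UMIs). Eomes and Tbx21, which are lymphocyte factors, were called higher in whole libraries at E18.5 than at E15.5, from 15 UMIs each at E18.5 against 7 and 8 at E15.5, and Eomes was lower at E15.5 than at E13.5 (7 and 25 UMIs).

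Among 6 Pitx and LIM partners, Pitx3, a muscle factor, was called higher in whole libraries in all 3 pairs (ratios 5.33, 2.17 and 2.46), while muscle cells numbered 7, 70, 134 and 426; their part in these ratios was not tested. Ldb2, a LIM cofactor, was 2.12-fold lower in whole libraries at E18.5 than at E15.5. Of 5 genes known as targets repressed by TBX2 or TBX3 in mouse or human cells, Cdkn1a, a cell cycle inhibitor, was called higher in the mesenchyme at E13.5 than at E11.5 (ratio 2.89, 2.55 to 3.30), and Gja1, a gap junction gene, was 3.91-fold lower (3.70 to 4.14). In whole libraries Gja1 (2.99-fold) and Cdh1 (3.20-fold), an epithelial adhesion gene, were lower in that pair, and at E18.5 against E15.5 Cdh1 (6.22) and Cdkn2a (3.72) were higher. At E15.5 against E13.5 Cdkn2a was higher in whole libraries (3.63, from 15 and 5 UMIs) and Cdkn1a in the mesenchyme (2.12), and Cdkn2a was higher in the mesenchyme at E18.5 (7.09, from 18 and 14 UMIs). The listed genes thus did not all move in 1 direction.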

How the data were processed

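The deposited files hold whole-number UMI counts per gene and cell barcode for 4 libraries, which the authors made with Cell Ranger and analysed with Seurat 2.3.4, per the submitters' processing notes. The sources used here do not say whether counting used strand. GENCODE vM21 (GRCm38) gave 32655 of the gene IDs a symbol.

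Cells under 200 genes or above 10% mitochondrial UMIs were left out. Scrublet marked 42 barcodes (0.409%), which were left out, but so low a share is not counted as working doublet removal. Cells were scaled to 10000 UMIs, log-transformed and clustered together (scanpy 1.11.5, python 3.11.15, 2000 variable genes without the 8 genes and listed genes, 30 components, 15 neighbours, Leiden resolution 1.0), giving 29 clusters, of which 2 had no class. A class needed at least 3 markers in at least 20% of cells. Summed UMIs without globin gave CPM with exact Poisson intervals. Ratios had exact conditional binomial intervals (scipy 1.17.1) and were divided by the median gene's. The calculation was run on simulated Poisson counts, the model the intervals assume. That run held no spread between cells or animals and cannot judge the intervals for such spread. With 1 library per stage nothing was tested. For shares of cells, 15, 0, 0 and 126 cells under 3000 UMIs were left out. Coding sequences were aligned with mafft 7.526. A limit for a count of 0 is 3 UMIs. Alternatives were other filters, scalings, caps, clusterings and compartments.

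Listed pathway genes were named where called, at most 3 per list and pair, and the 5 most alike genes were named for Pitx1, Tbx4, Tbx15, Tbx18 and any other of the 8 genes with at least 500 UMIs. The 8 genes and all lists were chosen with earlier results of these data known. A few genes named by these rules, and 1 coding stretch, are not reported here.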

Additional observations from a re-analysis of the deposited data

Results flagged for a closer look

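Pitx1 differed between compartments in its direction at E13.5 against E11.5. Its ratio relative to the median gene was 2.67 in the epithelium, from 20 UMIs at E13.5 and 14 at E11.5, and 0.374 in the mesenchyme, from 2901 and 6688 UMIs. The difference between the compartments was not tested. The epithelial level was 6.82 CPM at E13.5 and 3.84 CPM at E11.5, against 9.66 and 9.06 CPM in the immune cells of the same libraries, so the epithelial values lay at or below the level read in cells that should lack the gene.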

How the results depend on the processing

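No paired analysis was possible because each stage is 1 library. Of 178 alternative values of the counts and shares that answer the comparisons, 157 kept their size and 21 moved. Of 404 single-gene ratios 382 kept their call (higher, lower or not called), and ratios that stayed uncalled were not checked for direction. The share of all genes called was not computed in the alternative settings, so the counts of called genes below have no background beside them. With mural cells left out, 0 genes were called higher at E18.5 against E15.5 in whole libraries, and the Tbx2 ratio turned to 0.809. With mesenchyme and mural cells both left out, at E13.5 against E11.5 2 genes were called higher (Pitx1 2.22 and Tbx15 4.91) and 0 lower, with Tbx2 at 1.64. The Tbx15 call rests on few UMIs. Endothelium, epithelium and immune cells had 4, 7 and 1 of them at E11.5, then 8, 6 and 0. Muscle, which numbered 7 cells and then 70, held 14 Tbx15 UMIs at E13.5. Pitx1 went from 5.96 to 9.38 CPM in the endothelium, 3.84 to 6.82 in the epithelium and 9.06 to 9.66 in immune cells. Muscle had 12.8 CPM of Pitx1 at E13.5. What the muscle cell numbers add to these ratios was not tested. In the same setting, without mesenchyme and mural cells, 1 gene, Isl1, was called higher at E15.5 against E13.5, and 0 at E18.5 against E15.5. Tbx2 stood at 0.948 and Tbx3 at 0.788 in the latter pair. In the mesenchyme at E18.5 against E15.5, 2 genes (Tbx5 and Tbx18) were called higher under the stricter cell filter and with at most 5 UMIs per cell, and 1 (Isl1) was called lower with no division by the median gene and with size factors. Placing each cell by its highest marker score gave mesenchyme shares from E11.5 to E15.5 of 96.0%, 95% and 94.6% for Pitx1, 96.4%, 93.9% and 92.5% for Tbx15, and 96.0%, 92.8% and 90.3% for Tbx18, with 94.2% at E11.5 and 92.9% at E15.5 for Tbx4. Under the stricter filter the Tbx4 share at E18.5 was 100%. The cause was not tested. Thinning moved 28 of 32 shares of cells, and keeping doublet calls moved 0 of 32. Thinning to 3000 UMIs lowers such shares by design, and the doublet calls were only 42 of 10272 barcodes, so neither count measures stability. Depth limits Tbx5 (12 to 20 UMIs a library) and, at E18.5, Isl1 and Tbx4 (13 and 17 UMIs).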
